A study of Mus musculus with 2 samples.

Results

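The aquaporins are a family of channel proteins that let water cross cell membranes. The members were named by symbol, Aqp1, Aqp3, Aqp4, Aqp5 and Aqp11, and all 5 were found among the 27998 genes of both count tables; no aquaporin served to define a cell type. The gene names cover 12 aquaporins in all, and the other 7 are given only as counts. Whole salivary glands, titled SMG, the usual abbreviation of the submandibular gland, were dissociated and run as single cells on the 10x Chromium platform, which tags the 3' ends of transcripts in droplets. The source is labelled as primary epithelial progenitor cells, yet endothelial, immune and red cells were among the cells kept. There was 1 library from a p63 KO mouse and 1 from a p63 WT mouse, both adult and 12 weeks of age. The Trp63 gene makes p63, on which basal cells of stratified and glandular epithelia depend. How, when and in which cells p63 was removed, the strain, and whether glands of several animals were pooled are not given in the sources used here. The genotypes have 1 library each, which allows no test between them. Intervals are 95% intervals that cover counting error only, and the spread between mice is unknown. Those of levels and ratios also leave out the spread between cells of a class.

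Water follows ions across the secretory epithelium of a salivary gland. AQP5 sits in the apical membrane of acinar cells, the cells that make primary saliva, and in intercalated duct cells, and mice that lack it secrete less and more viscous saliva. AQP1 is the water channel of endothelium, red cells and, in some glands, myoepithelial cells. AQP3 and AQP4 are described in basal and lateral membranes of epithelia. AQP11 lies in intracellular membranes, among them the endoplasmic reticulum, in kidney and liver of the mouse. Acinar fluid is driven by chloride uptake through NKCC1, encoded by Slc12a2, chloride exit through the calcium-activated channel encoded by Ano1, and potassium exit through channels encoded by Kcnn4 and Kcnma1.

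In GENCODE mouse M21 on GRCm38, Aqp5 (ENSMUSG00000044217) lies on the plus strand of chromosome 15, from 99590782 to 99594829, between Aqp2, which ends at 99584547, and Aqp6, which starts at 99601400. Aqp1 (ENSMUSG00000004655) lies on the plus strand of chromosome 6, from 55336432 to 55348555. Aqp11 (ENSMUSG00000042797) lies on the minus strand of chromosome 7, from 97724006 to 97738289, and Aqp3 (ENSMUSG00000028435) on the minus strand of chromosome 4, from 41092722 to 41098183. No other annotated gene overlaps these 4. The promoter windows of Aqp5 and Aqp1 are shown because these genes held nearly all aquaporin UMIs and were detected mostly in different cell types. They are RefSeq sequences on GRCm38.p6, plus strand, chr15:99590778-99591077 for Aqp5 and chr6:55336049-55336348 for Aqp1; nearly all of the Aqp5 window lies inside the GENCODE gene. Capitals mark matches, on either strand, to the GC box GGGCGG and the E-box CANNTG.
Aqp5: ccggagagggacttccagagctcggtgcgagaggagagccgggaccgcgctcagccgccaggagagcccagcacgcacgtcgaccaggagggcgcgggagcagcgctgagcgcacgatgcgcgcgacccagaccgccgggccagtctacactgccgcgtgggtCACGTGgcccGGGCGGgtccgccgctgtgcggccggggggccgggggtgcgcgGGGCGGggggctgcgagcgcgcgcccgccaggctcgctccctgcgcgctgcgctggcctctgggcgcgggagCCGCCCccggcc
Aqp1: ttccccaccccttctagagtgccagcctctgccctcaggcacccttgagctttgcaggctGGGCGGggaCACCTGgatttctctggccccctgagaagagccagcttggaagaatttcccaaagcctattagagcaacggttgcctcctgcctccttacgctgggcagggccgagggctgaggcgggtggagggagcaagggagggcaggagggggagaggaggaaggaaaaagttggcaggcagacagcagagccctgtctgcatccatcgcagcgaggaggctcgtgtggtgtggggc
The Aqp5 window held 3 GC boxes and 1 E-box and had a GC content of 79.7%, and the Aqp1 window held 1 of each, at 62.7%. Of 32851 RefSeq promoter windows of that length, 35.7% held a GC box and 72.3% an E-box. Of the other motifs searched on both strands, neither window held the TATA box TATAAA (in 13.6% of all windows), the CCAAT box (37.4%), the GATA motif GATAA (25.4%) or the tetranucleotide CATG (61.1%).

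Counts are of UMIs, tags that each mark 1 captured molecule. A filter for 200 or more detected genes and a mitochondrial share below 20% left 2423 of 4726 KO and 1663 of 1970 WT barcodes, with medians of 2088 and 3406 UMIs per cell. The median mitochondrial share of deposited barcodes was 14.8% in the KO and 5.57% in the WT library. Trp63 had 20 UMIs (2.91 CPM, the count scaled to a common total) in kept KO cells and 149 UMIs (18.8 CPM) in kept WT cells; a 3' tag outside the deleted part would not check the deletion. The libraries shared 7 barcodes among kept cells. Cells were placed in classes by marker genes: 1551 KO and 1184 WT cells passed a gate, 708 and 287 passed none, and 164 and 192 matched more than 1 class and were left unassigned. The acinar class (34 KO and 144 WT cells) had all 10 of its markers at least 2-fold above other cells in both libraries, as did the endothelial class (259 and 45 cells) with its 15. The class named for Smgc, the gene of a submandibular gland protein C (67 and 300 cells), had 2 of 6 in the KO library, Smgc and Dcpp1, with Dcpp2, Dcpp3, Gal and Agr2 at 0, and 4 of 6 in the WT library. It therefore rests on Smgc and is called Smgc-rich, not by a cell type. The basal duct class (40 and 163 cells) had 6 of 13 in the KO library, with Krt15, Col17a1 and Sostdc1 at 0, and 12 of 13 in the WT library. Trp63 is itself on that list, so basal duct cells of both libraries may not be alike.

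Aqp5 and Aqp1 accounted for nearly all aquaporin molecules, and most of their UMIs lay in different cell classes. Over kept cells, Aqp5 had 238 UMIs in 94 KO cells and 1137 UMIs in 354 WT cells. Aqp1 had 577 UMIs in 170 KO cells and 140 UMIs in 54 WT cells. Aqp11 had 35 UMIs in the KO and 10 in the WT library, Aqp4 had 8 and 4, and Aqp3 had 1 and 0. The filter removed few of them: the deposited barcodes held 241 and 1162 UMIs of Aqp5 and 599 and 142 of Aqp1. Immune cells (macrophages, NK, ILC or T cells, and neutrophils by their markers; 287 KO and 105 WT cells) served as a baseline for what free RNA or mixed droplets can leave. There Aqp5 had 1 UMI in the KO and 3 in the WT library (10.3 CPM), and Aqp1 had 4 (8.41 CPM) and 3 (10.3 CPM). Of the 4 KO Aqp1 UMIs, 3 lay in 1 macrophage, and the source of these counts was not tested.

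**Figure D1:**
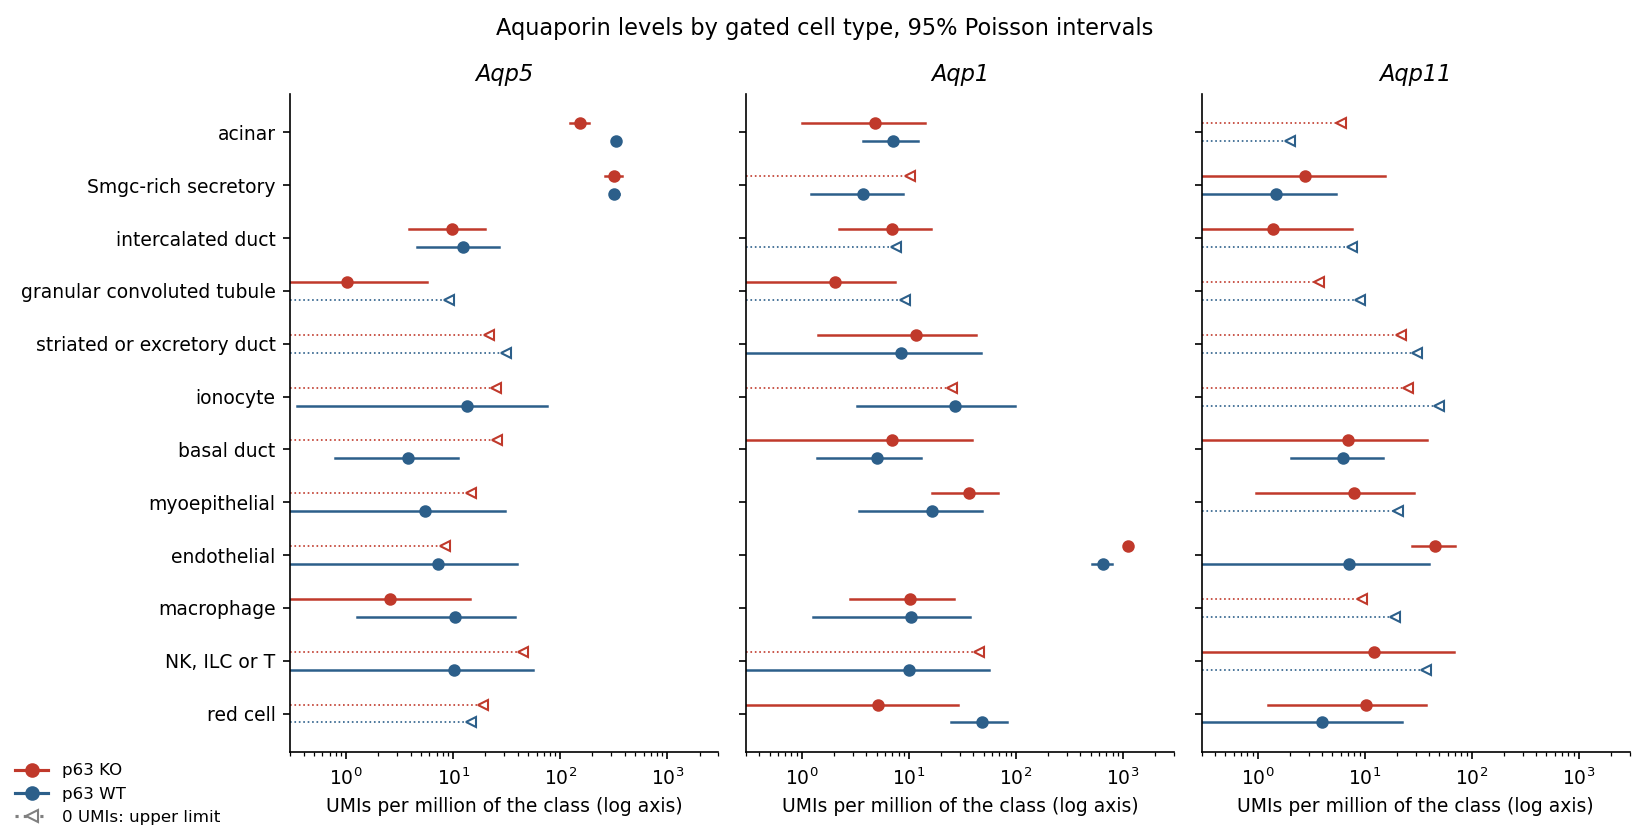
Level in CPM (log axis) for Aqp5, Aqp1 and Aqp11 in the 12 classes that had 20 or more cells in both libraries; points are KO (red, upper) and WT (blue, lower) class sums, lines are 95% Poisson intervals, and open triangles mark the upper limit where a class held 0 UMIs. Aqp5 stands apart in the acinar and Smgc-rich classes, with 153 to 329 CPM, and Aqp1 in endothelial cells, with 1119 CPM in the KO and 644 CPM in the WT library.

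Aqp5 was high in the secretory classes and far lower in the other gated classes. In acinar cells it had 94 UMIs in the KO library (153 CPM, 123 to 187) and 607 in the WT library (329 CPM, 303 to 356). In Smgc-rich cells it had 114 UMIs in the KO (315 CPM, 260 to 378) and 430 in the WT library (321 CPM, 292 to 353). Acinar cells held 39.5% of KO and 53.4% of WT Aqp5 UMIs and Smgc-rich cells 47.9% and 37.8%, while ungated cells held 21 UMIs in the KO (9.67 CPM) and 85 in the WT library (42.7 CPM, 34.1 to 52.8). The WT ungated level lay between that of the secretory classes and that of immune cells (10.3 CPM, 2.12 to 30.1). Ungated cells include those that passed a secretory gate but also matched another class, so this is the level of a mixture. Mucl2 made up 3.51% of WT and 0.632% of KO ungated UMIs, and Smgc 0.788% and 0.0422%. Aqp5 was detected in 23 of 34 KO acinar cells (67.6%, 49.5 to 82.6%) and in 121 of 144 WT acinar cells (84.0%, 77.0 to 89.6%), at median depths of 13005 and 9529 UMIs. In Smgc-rich cells it was detected in 43 of 67 KO cells (64.2%, 51.5 to 75.5%) and 180 of 300 WT cells (60%, 54.2 to 65.6%), at medians of 5153 and 3927 UMIs. Immune cells, at medians of 1534 and 2519 UMIs, had an Aqp5 UMI in 0.348% of KO and 2.86% of WT cells. With every cell thinned to 1000 UMIs, the expected share was 12.7% of KO and 27.0% of WT acinar cells, 24.6% and 25.6% of Smgc-rich cells, and 0.245% and 0.890% of immune cells.

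The intercalated duct, where AQP5 protein is described, had little Aqp5 RNA as gated here. The class held 7 UMIs in 157 KO cells (9.67 CPM, 3.89 to 19.9) and 6 UMIs in 112 WT cells (12.4 CPM, 4.56 to 27.0). Set against immune cells of the same library, this was 4.60-fold (0.591 to 207) in the KO and 1.21-fold (0.258 to 7.46) in the WT library. With this gate a level above that of immune cells was therefore not detectable. The value and its order between genotypes depended on how the class was drawn. The Smgc-rich gate takes cells out of this class: with that gate at 3% in place of 1% of a cell's UMIs, the intercalated duct held 30 UMIs in the KO (37.6 CPM) and 6 in the WT library (11.7 CPM), while clusters found in each library alone gave 10 UMIs (11.2 CPM) in the KO and 31 (28.1 CPM) in the WT library. In granular convoluted tubule cells, the androgen-sensitive duct segment of rodents that makes kallikreins and growth factors, Aqp5 had 1 UMI in 362 KO cells and 0 in 141 WT cells. Striated or excretory duct cells had 0 in 70 KO and 35 WT cells, and basal duct cells 0 in 40 KO and 3 UMIs in 163 WT cells. Among WT classes below the secretory pair, the Aqp5 levels of 3.81 to 13.6 CPM had overlapping intervals, and no order can be read from them.

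Aqp5 and Smgc were found in the same cells outside the acinar gate. In cells whose Smgc-list UMIs were under 0.1% of the total, Aqp5 had 2.51 CPM in 2244 KO cells and 5.12 CPM in 1068 WT cells. At 0.1 to 1% it had 53.5 CPM in 73 KO cells and 21.3 CPM in 110 WT cells. At 1 to 5% it had 268 CPM in 42 KO cells (204 to 347) and 74.9 CPM in 31 WT cells (38.7 to 131). At 5% or more it had 376 CPM in 26 KO cells (285 to 488) and 351 CPM in 288 WT cells (319 to 386). The level was thus higher in each band than in the one before it in both libraries, and the intervals of KO and WT cells were apart in the 1 to 5% band and overlapped at 5% or more. The Smgc-list share of the Smgc-rich class itself was lower in the KO library, with Smgc at 5.84% of KO and 16.1% of WT UMIs, while Pip, the gene of prolactin-induced protein, was at 14.6% and 5.29%.

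**Figure D2:**
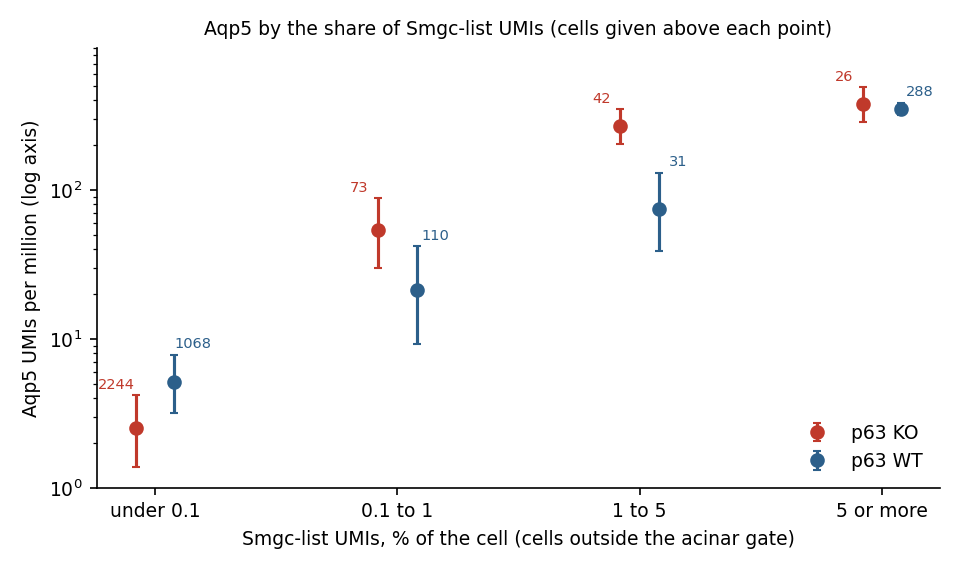
Aqp5 level in CPM (log axis) in cells outside the acinar gate, by the share of Smgc-list UMIs in the cell, for KO (red) and WT (blue) cells; lines are 95% Poisson intervals and the number of cells stands by each point. Aqp5 runs between 2.51 and 376 CPM in KO cells and between 5.12 and 351 CPM in WT cells over the 4 bands.

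Which secretory class had more Aqp5 depended on the scaling. By class totals, Smgc-rich over acinar cells was 2.06-fold (1.56 to 2.74) in the KO and 0.978-fold (0.862 to 1.11) in the WT library. Secretory product genes fill much of an acinar cell's RNA: the marker genes of the acinar, Smgc-rich and granular tubule lists made up 63.6% of KO and 67.9% of WT acinar UMIs, against 21.4% and 22.7% in Smgc-rich cells. Mucl2 alone took 37.3% and 45.1% of acinar UMIs. With those genes and mitochondrial genes left out of the totals, the same ratio was 0.913-fold (0.689 to 1.21) in the KO and 0.387-fold (0.341 to 0.438) in the WT library. The acinar level was then 464 CPM in the KO and 1156 CPM in the WT library, and the Smgc-rich level 423 and 447 CPM.

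Between genotypes, Aqp5 was lower in KO than in WT acinar cells and near equal in Smgc-rich cells. In acinar cells the KO level was 2.15-fold lower (1.73 to 2.70; 153 CPM in 34 KO cells, 329 CPM in 144 WT cells). Class sums were compared by a rule of size: the libraries had to hold 50 or more UMIs between them, and the whole interval had to lie past 2-fold. Aqp5 was the 1 member with enough UMIs in acinar cells and did not pass, where 5.4% of 1425 genes passed, and 1.19% passed as lower in the KO library. Over those genes the median log2 ratio was 0.20, beside -1.06 for Aqp5. With product and mitochondrial genes left out of the totals the median was 0.03 and Aqp5 passed, at a ratio of 0.401 (0.319 to 0.499), where 4.24% of 1393 genes passed and 1.87% passed as lower. It also passed with TMM scaling, which sets totals by the bulk of genes, at a ratio of 0.334 (0.266 to 0.416). At each depth the KO level was the lower, on few shallow KO cells whose intervals were wide: KO acinar cells had 145 CPM under 5000 UMIs, 105 CPM between 5000 and 10000, and 157 CPM above (8, 7 and 19 cells), where WT cells had 326, 312 and 332 CPM (38, 37 and 69 cells). Mitochondrial shares were 3.47% in KO and 3.67% in WT acinar cells. With every cell weighted equally the means were 137 CPM in KO and 327 CPM in WT acinar cells, a ratio of 0.420. Those means are also the levels expected over all random draws of 1000 UMIs per cell. In 1 such draw, with 10 KO and 46 WT Aqp5 UMIs left, the ratio was 0.921 (0.414 to 1.85).

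In Smgc-rich cells the KO over WT ratio of Aqp5 was 0.980 (0.790 to 1.21), not past the rule, which 4.75% of 3242 genes passed. This value depended on which cells were taken: in clusters found in each library alone the Smgc-rich level was 200 CPM in the KO and 366 CPM in the WT library, a ratio of 0.546 (0.446 to 0.665). That the acinar ratio differs from the Smgc-rich ratio was not tested.

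**Figure D3:**
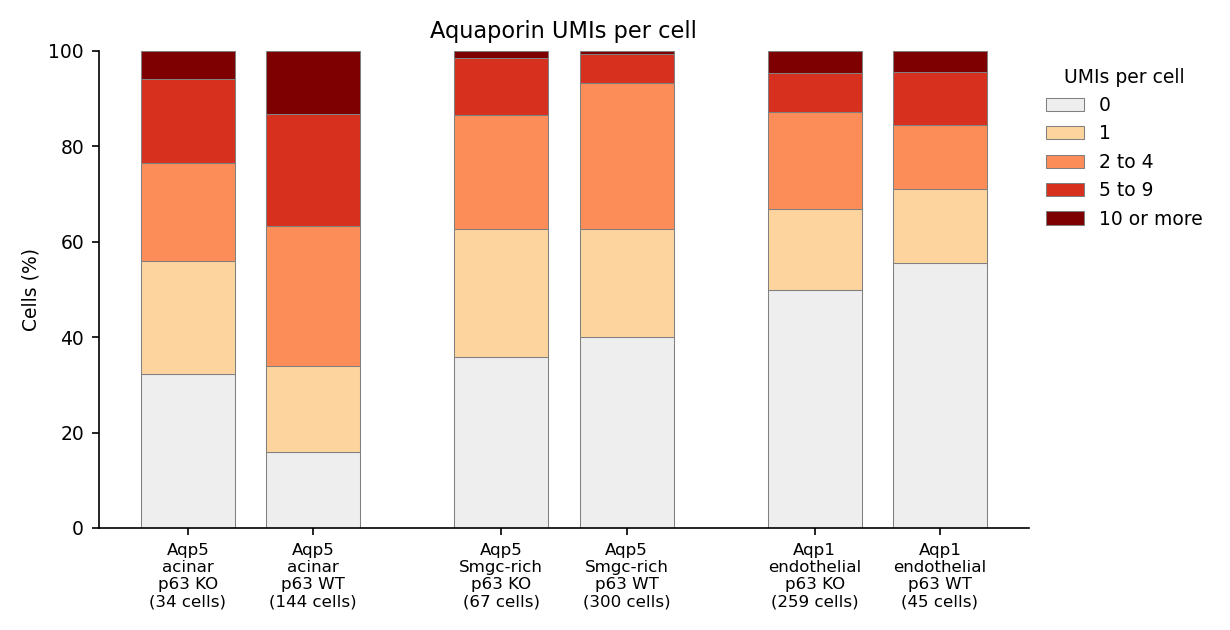
Share of cells (%) by the number of UMIs they held, for Aqp5 in acinar and Smgc-rich cells and Aqp1 in endothelial cells, each with KO left of WT; colours give the UMIs per cell. At least 10 Aqp5 UMIs were found in 2 of 34 KO and 19 of 144 WT acinar cells, and Aqp1 was at 0 in 129 of 259 KO and 25 of 45 WT endothelial cells.

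Aqp1 lay mostly in endothelial cells in both libraries. Endothelial cells held 497 of its 577 KO UMIs (86.1%) and 90 of its 140 WT UMIs (64.3%). The level was 1119 CPM in the KO (1023 to 1222) and 644 CPM in the WT library (518 to 791), which was 89.9-fold (70.9 to 115) and 100-fold (70.2 to 145) above all other kept cells of the same library. It was detected in 130 of 259 KO cells (50.2%, 43.9 to 56.4%) and 20 of 45 WT cells (44.4%, 29.6 to 60.0%), at medians of 1506 and 2829 UMIs. Thinned to 1000 UMIs, the expected shares were 40.8% of KO and 29.4% of WT endothelial cells, against 0.478% and 1.01% of immune cells. The largest count in a cell was 27 UMIs in the KO and 16 in the WT library.

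The KO over WT ratio of Aqp1 in endothelial cells was 1.74 (1.39 to 2.20), which did not pass the rule, where 3.22% of 1614 genes passed as higher and 5.76% in either direction. With every cell weighted equally it was 1.47, from means of 1073 CPM in KO and 731 CPM in WT cells. Over all kept cells, 2 of the 5 members passed the rule, Aqp1 at 4.76-fold higher (3.95 to 5.76) and Aqp5 at 4.14-fold lower (3.60 to 4.78), where 9.21% of 10285 genes passed, 6.72% as higher and 2.49% as lower. Class shares differed in the same directions: endothelial cells were 10.7% of KO and 2.71% of WT kept cells, acinar cells 1.40% and 8.66%, and Smgc-rich cells 2.77% and 18.0%. The shallowest deposited barcode had 1076 UMIs in the KO and 2175 UMIs in the WT library, and KO endothelial cells had a median of 1506 UMIs. Cell numbers in the gland, recovery of cells and this difference in least depth cannot be told apart here.

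**Figure D4:**
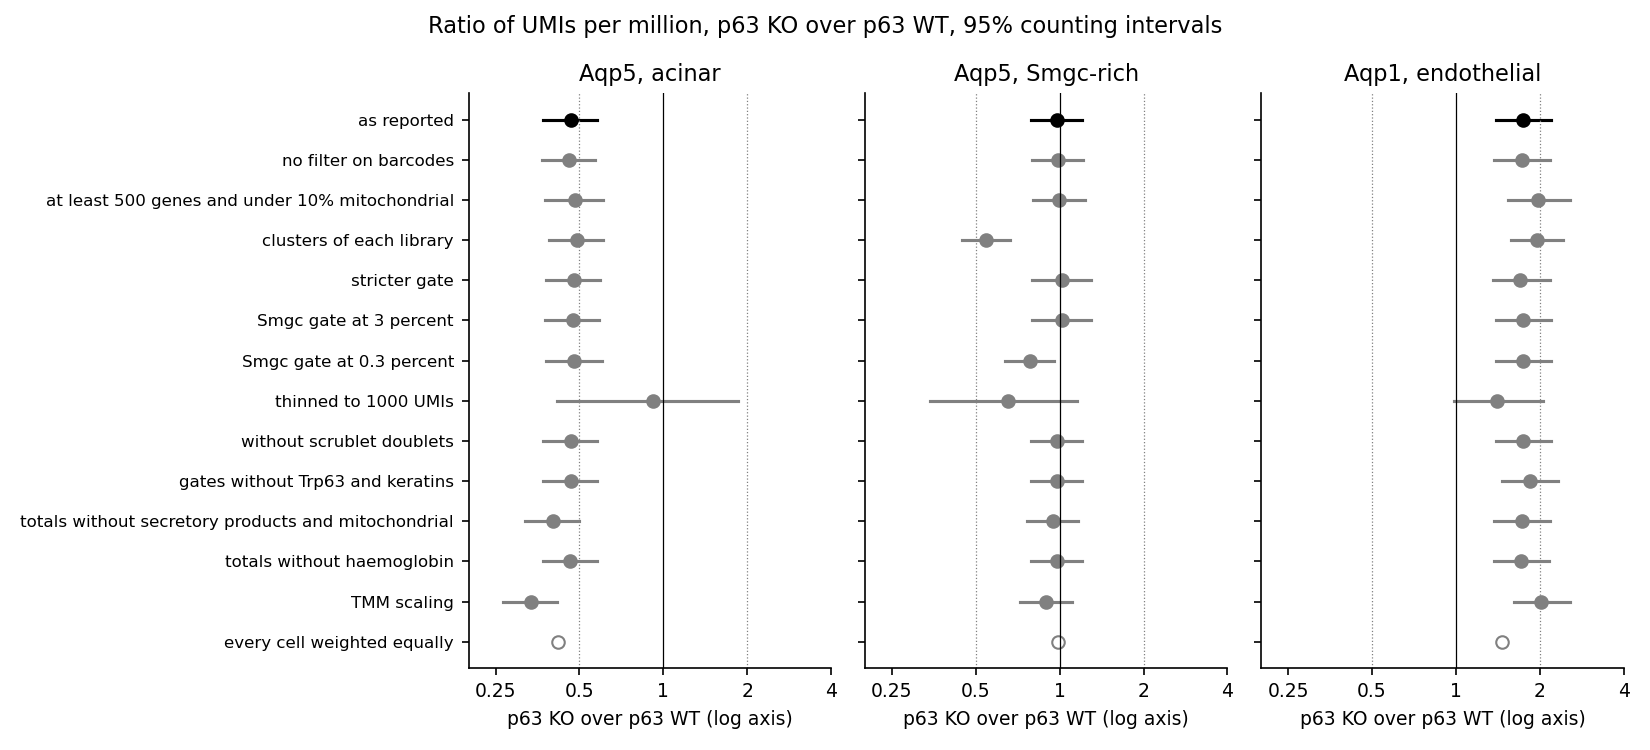
KO over WT ratio of levels in CPM (log axis) for Aqp5 in acinar cells, Aqp5 in Smgc-rich cells and Aqp1 in endothelial cells, as reported (black) and under other settings (grey); lines are 95% intervals for counting error, open points have none, and dotted lines mark 2-fold. The acinar Aqp5 ratio lies between 0.334 and 0.489 except in the thinned draw (0.921), and the endothelial Aqp1 ratio between 1.40 and 2.02.

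Endothelial cells were not alike in Aqp1. Short lists of genes known from venous (Ackr1, Vwf, Selp, Nr2f2, Vcam1), arterial and lymphatic endothelium were set against it, with a capillary list; the lists were chosen after the data had been seen, and Ackr1 and Vwf are also markers of the endothelial gate. In the KO library Aqp1 had 2446 CPM (2179 to 2735) in 64 cells with a venous-list UMI and 599 CPM (517 to 690) in 195 cells without, a 4.08-fold difference (3.40 to 4.92). In the WT library it had 1431 CPM (1124 to 1797) in 18 such cells and 182 CPM (104 to 295) in 27 without, a 7.88-fold difference (4.55 to 14.5). These intervals treat each UMI as independent, though Aqp1 UMIs were unevenly spread over cells, so they are too narrow for a comparison between cells. The median depth was 1832 UMIs with and 1380 without in KO cells, and 2694 with and 2943 without in WT cells. For the arterial list, cells with a UMI had a lower Aqp1 level in both libraries, 0.780-fold (0.641 to 0.945) in the KO and 0.580-fold (0.334 to 0.965) in the WT library. By share of cells the WT order was the reverse. Aqp1 was detected in 57.1% of 14 WT cells with an arterial-list UMI and 38.7% of 31 without. In the KO library it was detected in 47.3% of 91 cells with and 51.8% of 168 without. A capillary list (Plvap, Rgcc, Gpihbp1, Car4, Cd36) had a UMI in 256 of 259 KO and 43 of 45 WT cells and so left too few without to compare, with ratios of 0.587 (0.306 to 1.29) in the KO and 5.25 (0.918 to 209) in the WT library. For the lymphatic list the ratio was 0.496 (0.296 to 0.784) in the KO and 1.22 (0.538 to 2.43) in the WT library, where 4 cells had such a UMI. The share of KO cells with Aqp1 was near equal, 50% with a lymphatic-list UMI and 50.2% without.

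The same cells can be split by Aqp1, which reuses the same counts and is no second result for the venous list. Selp, Vcam1 and Ackr1 are on that list, and the genes named below were chosen after their values were seen. Split so, the adhesion gene Selp, which encodes P-selectin, had 131 UMIs in the 130 KO cells with Aqp1 and 16 in the 129 without, and 19 and 0 in WT cells. Vcam1, which encodes a leukocyte adhesion receptor, had 55 and 4 UMIs in KO cells and 10 and 2 in WT cells. Ackr1, the chemokine-binding receptor of venules, had 30 and 0 UMIs in KO cells and 16 and 0 in WT cells, which is at least 8.15-fold and 7.38-fold higher against a floor of 3 counts over the group without. Lrg1, a secreted glycoprotein gene of venules, had 331 and 97 UMIs in KO cells and 73 and 0 in WT cells. Not all genes ran the same way. Of 10 genes listed as higher in KO cells with Aqp1, 7 kept their direction in WT cells, and of 10 listed as lower, 6 did. Cst3, which encodes the protease inhibitor cystatin C, was 0.504-fold (0.444 to 0.571) in KO cells with Aqp1 over those without. In WT cells it was 4.96-fold (3.64 to 6.86). Igfbp4 (0.294-fold in KO and 4.74-fold in WT cells), Clu (0.330 and 4.04) and Rhoc (0.407 and 2.77) also turned. The KO and WT intervals of these genes were apart, though they leave out the spread between cells. Among the higher genes, Rpl10-ps3, Thbs1 and Snrpe turned, with overlapping intervals. All these genes were picked after their values were seen. The arterial list summed to 0.654-fold (0.517 to 0.826) in KO cells with Aqp1 over those without and to 4.76-fold (2.69 to 8.89) in WT cells, so its direction differed between the libraries and, in the WT library, between both ways of splitting the cells. The lymphatic list had 45 UMIs in KO cells with Aqp1 and 9 in those without, 4.07-fold higher (1.97 to 9.48). Its direction in the KO library thus also differed between both ways of splitting, and WT cells had 2 and 2 UMIs. Haemoglobin genes had 527 CPM in KO cells with Aqp1 and 722 CPM in those without, but 33447 and 5052 CPM in WT cells; the part of red cell RNA in these differences was not tested.

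**Figure D5:**
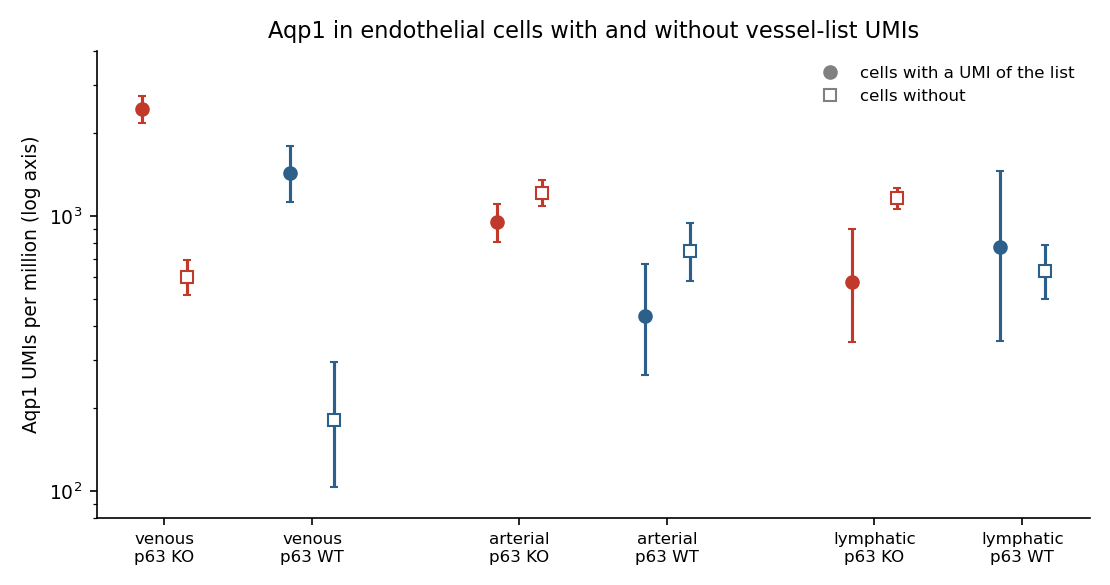
Aqp1 level in CPM (log axis) in endothelial cells with a UMI of the venous, arterial or lymphatic list (filled) and without one (open), KO left of WT for each list; lines are 95% Poisson intervals. The venous list divides the cells in both libraries, at 2446 with and 599 CPM without in KO cells and 1431 with and 182 CPM without in WT cells.

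Outside endothelium, Aqp1 counts were small. Pericytes or smooth muscle cells had 6 UMIs in 2 of 12 KO cells and 1 UMI in 2 WT cells, too few cells to compare. Red cells had 1 UMI in 65 KO cells (5.18 CPM) and 12 UMIs in 4 of 68 WT cells (47.7 CPM); 7 of the 12 lay in 1 cell. Endothelial markers were found in 2 of those 4 WT red cells and summed to 2426 CPM over the 4, against 439.8 CPM in the 64 without Aqp1. Myoepithelial cells, the contractile cells around acini, had 9 UMIs in 4 of 85 KO cells (36.1 CPM) and 3 UMIs in 1 of 40 WT cells (16.5 CPM). All 5 of these cells held endothelial marker UMIs, at 4188 CPM in the KO and 2543 CPM in the WT cell, against 466 and 277 CPM in myoepithelial cells without Aqp1. In acinar cells Aqp1 had 3 UMIs in 2 KO cells and 13 UMIs in 9 WT cells, and each of these cells also held Aqp5. They were deep cells, with medians of 44385 UMIs in KO and 21584 in WT cells, against 10261 and 8363 in acinar cells without Aqp1. Above 10000 UMIs, 17 of 19 KO and 67 of 69 WT acinar cells held Aqp5. The acinar Aqp1 levels, 4.87 CPM in the KO and 7.04 CPM in the WT library, lay below the immune level. That order turned with product and mitochondrial genes left out of the totals, to 14.8 CPM in KO and 24.8 CPM in WT acinar cells against 9.06 and 11.2 CPM in immune cells, with overlapping intervals. Endothelial markers summed to 158 CPM in KO acinar cells with Aqp1 and 15.2 CPM in those without, and to 233 and 31.2 CPM in WT acinar cells. The part of mixed droplets in these counts was not tested.

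Aqp11 was the third member by count, and in the KO library most of it lay in endothelial cells. It had 20 UMIs in 18 of 259 KO endothelial cells (45.0 CPM, 27.5 to 69.6) and 1 UMI in 45 WT cells (7.15 CPM, 0.181 to 39.9), a ratio of 6.30 (1.01 to 261) on too few UMIs for the rule. The KO endothelial level was 19.3-fold (9.40 to 40.5) that of all other kept KO cells, which had 15 UMIs (2.33 CPM). In the WT library the same ratio was 6.19 (0.141 to 44.7). Of the 18 KO endothelial cells with Aqp11, 12 also held Aqp1, as did 130 of all 259. The largest WT count of Aqp11, 5 of 10 UMIs, was in basal duct cells (6.35 CPM). In the KO library that class, which fewer of its markers bore out, had 1 UMI (6.93 CPM). No acinar cell of either library held an Aqp11 UMI.

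Aqp4 and Aqp3 were at the edge of detection. Aqp4 (ENSMUSG00000024411) lies on the minus strand of chromosome 18, from 15389496 to 15410982, where an antisense gene overlaps it; whether the counting used strand is not given, so reads of the pair cannot be told apart. Aqp4 had 3 UMIs in KO and 1 in WT intercalated duct cells, and its other 5 KO and 3 WT UMIs were spread over other classes and ungated cells; immune and endothelial cells had 0. Aqp3 had 1 UMI in the KO library, in an ungated cell, and 0 in the WT library, where the 95% Poisson upper limit was 0.465 CPM over all kept cells. Among the other 7 aquaporins, Aqp2 had 3 UMIs in KO and 1 in WT cells, Aqp9 had 2 and 0, Aqp7 had 1 and 1, and Mip, Aqp6, Aqp8 and Aqp12 had 0 in both. Few cells held a pair of members: Aqp1 and Aqp11 met in 15 KO cells and 1 WT cell, Aqp1 and Aqp5 in 3 and 13, Aqp4 and Aqp5 in 2 and 2, Aqp5 and Aqp11 in 1 and 3, and Aqp1 and Aqp4 in 0 and 1.

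Genes of acinar fluid secretion gave a setting for Aqp5. Of 19 listed genes, 5 had enough UMIs in acinar cells and 1 passed the rule, as lower in the KO library. Over all 1425 genes there, 5.4% passed and 1.19% passed as lower. The listed gene was Kcnn4, an intermediate-conductance potassium channel, with 53 UMIs in KO cells (86.1 CPM) and 477 in WT cells (258 CPM), a ratio of 0.333 (0.246 to 0.443). The NKCC1 gene Slc12a2 had 214 CPM in KO and 178 CPM in WT acinar cells, and Atp1b1, which encodes a beta subunit of the sodium pump, had 323 CPM in KO and 194 CPM in WT cells, neither past the rule. The 5 genes had a median log2 ratio of 0.25, beside 0.20 over all 1425 genes. In Smgc-rich cells 8 could be compared and 2 passed as lower, beside 1.79% of all genes: Slc12a2 with 295 CPM in KO and 776 CPM in WT cells, 2.63-fold lower (2.15 to 3.24), and Lrrc26, which encodes an accessory subunit of the large-conductance potassium channel, with 69.0 and 273 CPM, 3.95-fold lower (2.63 to 6.18). In intercalated duct cells 9 could be compared and 1 passed as lower, beside 4.1% of 3364 genes that passed and 2.38% as lower, Lrrc26 with 30.4 CPM in KO and 251 CPM in WT cells, 8.24-fold lower (5.20 to 13.6). Over all kept cells 17 could be compared and 2 passed, Kcnn4 and Lrrc26, both as lower, beside 9.21% of 10285 genes that passed and 2.49% as lower. Ezr, which encodes the membrane linker ezrin, had 1069 UMIs in KO and 800 in WT cells there. None passed in endothelial cells, where 3 could be compared, beside 5.76% of 1614 genes, and none passed as higher in any class named here. In acinar cells Lrrc26 had 50.3 CPM in KO and 140 CPM in WT cells (2.78-fold lower, 1.91 to 4.18), which passed only with product and mitochondrial genes left out of the totals.

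Across 25 class sums, 13 KO and 12 WT, the genes most like Aqp5 in log2 level were Slc12a8, a member of the cation-chloride cotransporter family (Pearson r 0.951), Pip (0.931), Pycr1, an enzyme of proline synthesis (0.913), Spdef, a transcription factor of secretory epithelia (0.889), and Abhd11os (0.887). Those most like Aqp1 were Grrp1 (0.955), Tmem252 (0.948), Mmrn2, an endothelial matrix protein gene (0.940), Thrsp (0.939) and the VEGF receptor gene Kdr (0.933). Pip and Kdr are on the marker lists of the acinar and endothelial classes, though Pip was not counted in the acinar gate. The class sums share libraries and depth, so these values describe the pattern over classes only.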

How the data were processed

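The deposited tables hold raw UMI counts per gene and barcode, 1 table per genotype. Per the submitters' processing notes the authors used bcl2fastq 2.19.1, Cell Ranger 2.1.0 and Seurat 3.1.2 with build mm10; their roles and settings are not given in the sources used here. Of 27998 Ensembl IDs, 27645 matched a symbol in GENCODE M21. The barcode filter (200 genes or more, mitochondrial share below 20%) left 6871803 UMIs in the KO and 7931377 in the WT library. Acinar cells had at least 10% of UMIs from acinar markers without Pip, and Smgc-rich cells at least 1% from the Smgc list. Other classes needed a mean marker z-score of 0.5, a lead of 0.25 and 3 detected markers. Gate thresholds were set after the marker distributions had been seen, and 20 KO and 10 WT cells lay near the acinar threshold, 44 and 16 near the Smgc threshold. UMIs were summed by class and library in Python 3.11.15 with scipy 1.17.1. Levels carry exact Poisson, shares exact Clopper-Pearson and ratios exact conditional 95% intervals, which cover counting error only. Because each genotype has 1 library, no count model was fitted; edgeR 4.0.16 gave TMM factors alone. Log2 ratios use a pseudocount of 10 CPM. Against doublets, cells whose best class lacked the lead of 0.25 were left out. Acinar and Smgc-rich cells were left out only where both gates, or a non-epithelial class, also matched. Mixed droplets can remain in the classes. The doublet caller scrublet marked 4 KO and 1 WT cells, so it did little. Scripts were tested on simulated data. Named genes are the members, the 4 fluid secretion genes with most UMIs and those past the rule of size in a class described, and the 5 genes most like Aqp1 and Aqp5. In the text 1 gene that this rule names is not reported here. The vessel genes were chosen after their values were seen. The members and lists were chosen with earlier results of these data known. Alternatives covered cell filters, class definition, thinning, scaling and the rule of size.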

Additional observations from a re-analysis of the deposited data

How the results depend on the processing

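No paired analysis was possible because each genotype has 1 library. The Aqp5 log2 ratio in acinar cells (-1.06) was -0.12 in 1 draw of 1000 UMIs per cell, -1.30 without product and mitochondrial genes and -1.51 with TMM scaling; the draw left 10 KO and 46 WT UMIs. In Smgc-rich cells (-0.03) it was -0.84 in clusters of each library, -0.34 with the Smgc gate at 0.3% and -0.59 in the draw, and its sign, near 0, turned to 0.03 with the stricter gate and with the Smgc gate at 3%. Clusters of each library gave Aqp1 964 CPM in KO and 495 CPM in WT endothelial cells, and Aqp5 199.8 and 366 CPM in Smgc-rich cells. Without product and mitochondrial genes Aqp5 was 464 CPM in KO and 1156 CPM in WT acinar cells, and 423 and 447 CPM in Smgc-rich cells. Shares of cells in the draw, and expected over all draws, were 41.3% and 40.8% of KO and 28.9% and 29.4% of WT endothelial cells for Aqp1, 20.6% and 12.7% of KO and 27.1% and 27.0% of WT acinar cells for Aqp5, and 19.4% and 24.6% of KO and 23.7% and 25.6% of WT Smgc-rich cells. The genes past the rule of size numbered 77 in acinar cells, against 131 with a minimum of 20 UMIs, 189 with none and 263 with the ratio alone past 2-fold. The ratio alone gave 660 in Smgc-rich cells, against 154. In endothelial cells it gave 336 and no minimum gave 226, against 93. The acinar Aqp5 log2 ratio stayed below 0 and the endothelial Aqp1 log2 ratio above 0 under every alternative run. In the draw, however, the intervals of both ratios held 1, with Aqp1 at 1.40 (0.983 to 2.05). Over all such draws the expected level equals the mean with every cell weighted equally. The ratios of those means were 0.420 for acinar Aqp5, 0.985 for Smgc-rich Aqp5 and 1.47 for endothelial Aqp1. The causes of the differences between genotypes were not tested. The few KO acinar and WT endothelial cells limit the precision. Alternatives on the cell filter, haemoglobin, scrublet calls, the basal and myoepithelial gates and the pseudocount moved none of these ratios past the rule.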
